A study of Mus musculus with 12 samples.

Results

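The genes described here are 7 matrix metalloproteinases (Mmp2, Mmp3, Mmp9, Mmp10, Mmp11, Mmp13 and Mmp14) and 3 tissue inhibitors of metalloproteinases (Timp1, Timp2 and Timp3), chosen by gene name from an RNA sequencing table of Sol8 cells. These 10 members stand among 54838 listed genes, and all 10 were among the 20415 genes that reached 10 counts in all libraries together and were tested. Sol8 is a myoblast line from mouse soleus muscle. The 12 libraries fall into 4 groups of 3, which are Gne KO differentiated, WT differentiated, Gne KO proliferative and WT proliferative cells. Proliferative cells grew in fetal calf serum and differentiated cells in horse serum, so that the 2 states differ in serum as well. The study saw no fusion of Gne KO cells in differentiation medium, where most of them stayed single. For Gne KO cells differentiated therefore names the culture medium, and on differentiation means the change of medium. The Gne KO cells are 1 puromycin-selected clone with a CRISPR/Cas9 deletion in a coding exon of Gne, an enzyme of sialic acid synthesis, while the WT cells are the line it came from, and the deletion cannot be told apart from other features of a single clone. Each group's 3 libraries carry biological replicate numbers in the labels. The study speaks of independent cultures and of triplicate extraction, without saying which of these a library stands for. The p-values therefore measure only the spread between these libraries, which may be technical. RNA was taken from whole cultures, in which fewer cells of a type and less RNA per cell cannot be told apart.

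Matrix metalloproteinases are zinc-dependent proteases that cut collagens, laminins, fibronectin and proteoglycans of the extracellular matrix. Most are secreted as inactive precursors and become active when another protease removes the propeptide. The Timp proteins bind the active site and block it, and Timp2 also helps membrane-bound Mmp14 to activate Mmp2 at the cell surface. In skeletal muscle Mmp2 and Mmp9 are known for matrix remodelling during regeneration and the migration of myoblasts.

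The total count per library was 22612038 to 29389759, with a median of 26740404. The members' raw counts ran from 85 for Mmp13 in Gne KO differentiated replicate 2 to 58248 for Timp2 in Gne KO proliferative replicate 3. The targeted gene does not check the genotype, since the deletion spares most of the transcript. Gne had 208.5 ± 3.27 normalized counts in Gne KO, against 275.3 ± 10.6 in WT differentiated cells, and 303.2 ± 61.8 in Gne KO and 270.3 ± 12.9 in WT proliferative cultures (SD, n = 3 each). Its Gne KO to WT log2 fold change was −0.40 in differentiated (adjusted p = 0.0467 from limma) and 0.13 in proliferative cells (adjusted p = 0.421). Log2 deviations of a library from its own group's remaining replicates had an SD of 0.331 to 0.428 for the Gne KO proliferative libraries and 0.316 for WT proliferative replicate 1, against 0.109 to 0.200 for the other 8.

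Markers of other cell types were summed as normalized counts. The myoblast list, of which 4 of 5 genes were tested, gave 10560 to 11550 in Gne KO and 27730 to 29650 in WT differentiated cells, and 13200 to 21190 in Gne KO and 27090 to 39010 in WT proliferative cultures. The myotube list (6 of 6 tested) gave 689.6 to 1255 in Gne KO and 34280 to 42520 in WT differentiated cells, and 520.6 to 1220 in Gne KO and 10010 to 36150 in WT proliferative cultures. Its ranges in the Gne KO states overlapped. Pax7, a marker of satellite cells, had 6 counts in all libraries together. The 36150 of the myotube list belonged to WT proliferative replicate 1. The fibroblast list (5 of 6 tested) gave 5489 to 5863 in Gne KO and 2521 to 2921 in WT differentiated cells, and 5232 to 5667 in Gne KO and 1734 to 1862 in WT proliferative cultures. Des made up most of the myoblast sum and Pdgfra most of the fibroblast sum, and other members did not all follow. Pi16, of the fibroblast list, was lower in Gne KO proliferative cells (log2 fold change −1.80, adjusted p = 0.00132 from limma) and higher in Gne KO differentiated cells (0.89, adjusted p = 0.0207). Ly6a had a value of −0.31 in differentiated cells (adjusted p = 0.31) and was higher in Gne KO proliferative cells (2.39, adjusted p = 2.24e-08). The smooth muscle list (4 of 4 tested) gave 20170 to 21860 in Gne KO and 32740 to 40510 in WT differentiated cells, and 67300 to 103600 in Gne KO and 63860 to 72430 in WT proliferative cultures. Acta2 made up most of that sum. In Gne KO proliferative cells it was higher (log2 fold change 0.48, adjusted p = 0.00538 from limma). Tagln (−0.59, adjusted p = 0.00262) and Cnn1 (−3.35, adjusted p = 5.95e-07) were lower there, and Myh11 had an adjusted p of 0.308. The bone and cartilage list (5 of 7 tested, with Ibsp and Acan at 0) gave 1568 to 1809 in Gne KO and 1103 to 1362 in WT differentiated cells, and 1797 to 2602 in Gne KO and 724.5 to 833.7 in WT proliferative cultures. Sox9 made up most of that sum. Col10a1 was lower in Gne KO differentiated cells (log2 fold change −1.61, adjusted p = 0.00096 from limma) and higher in Gne KO proliferative cells (1.17, adjusted p = 0.0022). The endothelial list (3 of 4 tested) gave 33.5 to 62.2 in Gne KO and 79.4 to 127 in WT differentiated cells, and 112 to 226 in Gne KO and 50.3 to 55.5 in WT proliferative cultures. These lists moved with genotype in 1 or both states, and their part in the results below was not tested. The macrophage and neutrophil list, of which 4 of 8 genes were tested, summed to 64.6 to 117 in all 12 libraries, with Adgre1 and S100a9 at 0.

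A gene is said to have passed at an adjusted p under 0.05 in limma's voom test over all 20415 genes, and to be called where it met, in addition, an effect filter described in the study's methods. That filter asks for a mean of 5 or more normalized counts and for a log2 fold change whose size exceeds 0.9 plus 7.5 over the square root of that mean. A normalized count is a read count scaled by TMM to a common library size. In differentiated cells 7 of the 10 members passed between the genotypes, with 4 higher and 3 lower in Gne KO, where 23.6% of all genes passed (11.1% higher and 12.5% lower). Mmp2 and Mmp3 were called there, against 3% of all genes. In proliferative cells 7 members passed, 6 higher and 1 lower, against 55.4% of all genes (28.2% higher and 27.2% lower). Mmp2, Mmp3, Mmp9, Timp2 and Timp3 were called there, against 9.25% of all genes.

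Between the states, 8 members passed in Gne KO cells, 2 higher and 6 lower in differentiated cells, against 56.4% of all genes (28.7% higher and 27.7% lower). The 4 called were Mmp2, Mmp9, Timp2 and Timp3, against 11.7% of all genes. In WT cells 8 members passed as well, 5 higher and 3 lower, against 31.8% of all genes (16.6% higher and 15.3% lower). Mmp10 was the 1 member called there, where 2.7% of all genes were. The 8 that passed in WT cells became 4 without WT differentiated replicate 1, and 5 without WT differentiated replicate 2, Gne KO differentiated replicate 2 or WT proliferative replicate 2 or 3. The number of all genes that passed moved as well, from 5167 to 8072 when 1 library was left out, against 6496 with all. The Gne KO to WT log2 fold change in differentiated minus that in proliferative cells, the interaction of genotype and state, passed for 9 members, 3 positive and 6 negative, against 41.9% of all genes (19.7% positive and 22.2% negative). Mmp9, Timp2 and Timp3 were called in it, against 8.53% of all genes. The members' median Gne KO to WT log2 fold change was 0.07 in differentiated and 0.65 in proliferative cells, beside −0.01 and −0.02 over all genes tested. Each group enters 2 of the 4 simple comparisons, so these counts are not independent of each other.

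**Figure D1:**
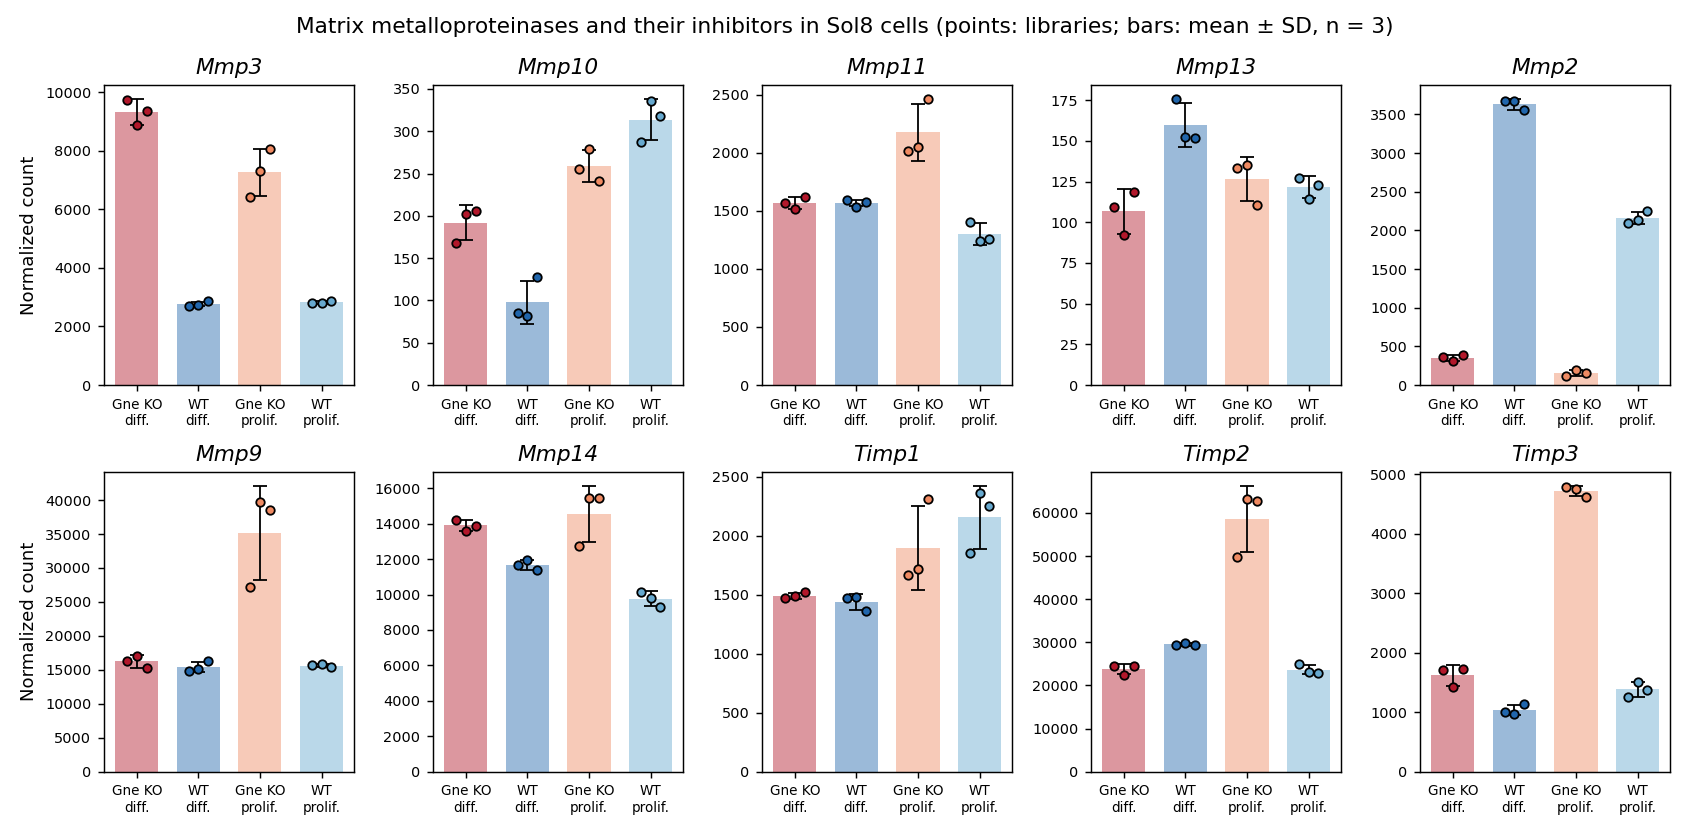
Normalized counts (y axis, from 0) of the 10 members in the 4 groups, with 1 point per library and bars of the mean ± SD (n = 3). Mmp2 is lowest and Mmp3 highest in the Gne KO groups, while Mmp9, Timp2 and Timp3 are highest in Gne KO proliferative cells.

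Base composition moved with 3 of the comparisons. Across 11497 genes with a mean of at least 50 normalized counts, the Gne KO to WT log2 fold change had a Spearman rho of 0.134 with GC content in differentiated cells and of 0.588 in proliferative cells. For differentiated against proliferative cells rho was −0.428 in Gne KO and 0.082 in WT cells, and for the interaction −0.536. Genes are not independent replicates, so these values describe the table. The members' exons held 41.7% GC in Mmp13 to 56.6% in Mmp11, against a median of 49.4% over those genes. The comparisons were repeated after each library's trend with GC content and transcript length had been removed, and the values after removal stand beside the results where the pass or the direction changed or the log2 value moved most.

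Mmp3, or stromelysin-1, cuts laminin, fibronectin and proteoglycans and activates precursors of other metalloproteinases. Its gene (ENSMUSG00000043613) lies on chromosome 9 of GRCm38, from 7445822 to 7455975. Mmp3 had 9742, 8880 and 9349 normalized counts in Gne KO differentiated cells, against 2710, 2735 and 2855 in WT differentiated cells. In proliferative cells it had 6427, 7295 and 8051 in Gne KO libraries, against 2806, 2783 and 2878 in WT libraries. Every Gne KO library exceeded every WT library. Mmp3 rose 3.37-fold in Gne KO differentiated cells (log2 fold change 1.75, SE 0.08, adjusted p = 2.58e-09 from limma) and 2.56-fold in Gne KO proliferative cells (1.36, SE 0.08, adjusted p = 9.04e-09). The fold change was larger in differentiated than in proliferative cells, by 0.40 on the log2 scale (SE 0.12, adjusted p = 0.0125). On differentiation Mmp3 rose 1.29-fold in Gne KO cells (log2 fold change 0.37, SE 0.08, adjusted p = 0.00097 from limma), and the WT groups, which overlapped, had a value of −0.03 (SE 0.08, adjusted p = 0.834).

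Mmp10, stromelysin-2, is the closest relative of Mmp3 and has similar substrates. Its gene (ENSMUSG00000047562) starts 56.5 kb downstream of that of Mmp3, from 7502352 to 7510240 on chromosome 9. Its counts were far lower, with 167.8, 202.1 and 205.2 in Gne KO differentiated cells, against 85.4, 81.2 and 127.4 in WT differentiated cells. Proliferative cells had 255.8, 278.7 and 241.0 in Gne KO libraries, against 287.7, 335.3 and 318.3 in WT libraries. The differentiated groups did not overlap, with Gne KO higher, and the proliferative groups did not overlap either, with Gne KO lower. Mmp10 rose 1.99-fold in Gne KO differentiated cells (log2 fold change 0.99, SE 0.17, adjusted p = 0.000448 from limma), and in proliferative cells its value was −0.27 (SE 0.13, adjusted p = 0.0943), or −0.38 (adjusted p = 0.0411) without WT proliferative replicate 1. The genotype effect differed between the states by 1.26 (SE 0.22, adjusted p = 0.000273). On differentiation Mmp10 fell in Gne KO cells (log2 fold change −0.44, SE 0.14, adjusted p = 0.0157), a pass lost without Gne KO differentiated replicate 1 (−0.34, adjusted p = 0.0912) or with scaling by library size (−0.17, adjusted p = 0.334). In WT cells it fell 3.25-fold (−1.70, SE 0.16, adjusted p = 1.31e-06). Between the genotypes the value in proliferative cells passed with that scaling (−0.46, adjusted p = 0.0103).

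Mmp13, collagenase-3, cuts fibrillar collagens and serves as a main interstitial collagenase of the mouse. Its gene (ENSMUSG00000050578) starts 173 kb upstream of that of Mmp3, from 7272514 to 7283331 on chromosome 9. It had the lowest mean count of the members over all libraries, with 109.6, 91.9 and 118.9 in Gne KO differentiated cells, against 175.6, 152.2 and 151.5 in WT differentiated cells. Proliferative cells had 133.4, 135.3 and 110.8 in Gne KO libraries, against 127.4, 114.3 and 123.2 in WT libraries. The differentiated groups were apart and the proliferative groups overlapped. Mmp13 fell by 0.58 on the log2 scale in Gne KO differentiated cells (SE 0.14, adjusted p = 0.00738 from limma), a direction opposite to that of Mmp3 and Mmp10. Mmp12, which lies between Mmp13 and Mmp3, was lower there as well (−0.88, adjusted p = 0.0305). So was Mmp27, downstream of Mmp10 (−1.01, adjusted p = 0.0172), both at low counts, while Mmp1a, Mmp1b and Mmp8 of this region did not pass. In proliferative cells the value of Mmp13 was 0.05 (SE 0.15, adjusted p = 0.808), or 0.62 (adjusted p = 0.0018) with the GC and length trend removed, Mmp13 having the lowest GC content of the members. The interaction was −0.62 (SE 0.20, adjusted p = 0.0227), and it no longer passed without Gne KO differentiated replicate 2, WT differentiated replicate 1 or WT proliferative replicate 2 (−0.49, −0.52 and −0.58), with scaling by library size (−0.40) or with no filter on counts (−0.57), while with the GC and length trend removed it was −1.18 (adjusted p = 0.000317). On differentiation the value was −0.24 in Gne KO cells (SE 0.15, adjusted p = 0.19), or −0.76 (adjusted p = 0.00027) with the trend removed. In WT cells it rose by 0.39 (SE 0.14, adjusted p = 0.046), a pass lost without any 1 of 9 libraries, those of the Gne KO differentiated and both WT groups, with adjusted p up to 0.23. This rise in WT cells passed in 10 of 22 alternatives.

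These 3 genes share promoter features. RefSeq promoter windows of 300 bases, from 250 before to 50 after the gene start in build GRCm38.p6, were at hand for 8 of the 10 members, without Mmp2 and Mmp9. The AP-1 motif TGANTCA, to which Fos and Jun proteins bind, was found in the windows of Mmp3, Mmp10 and Mmp13 and in none of the other 5, and, both strands searched as for the motifs that follow, it occurs in 7.81% of all 32851 windows of the table. The same 3 windows held TATAAA, the TATA box, which 13.6% of all windows hold, while 1.54% hold both. The stretches below show the 100 bases before the start of each of these genes, on the plus strand at chr9:7445722-7445821, chr9:7502242-7502341 and chr9:7272414-7272513, with both motifs in capitals.
Mmp3: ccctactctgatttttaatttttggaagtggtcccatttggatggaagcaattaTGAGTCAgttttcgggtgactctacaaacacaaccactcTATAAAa
Mmp10: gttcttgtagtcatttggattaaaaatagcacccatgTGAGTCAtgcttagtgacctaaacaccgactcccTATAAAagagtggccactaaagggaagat
Mmp13: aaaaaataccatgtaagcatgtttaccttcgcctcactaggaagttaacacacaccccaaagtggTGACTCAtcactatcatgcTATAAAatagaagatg
The AP-1 match begins 46 bases upstream of the start in Mmp3, 63 bases upstream in Mmp10 and 35 bases upstream in Mmp13, and in each gene the TATA box lies between it and the start. TATAAA begins 7, 29 and 16 bases upstream in Mmp3, Mmp10 and Mmp13. These distances are from the RefSeq start, which was not checked as the site where transcription begins. The motif AGGAAG, bound by PEA3 factors of the ETS family, was found in 5 of the 8 windows and in 35.4% of all windows. The windows of Mmp3, Mmp10 and Mmp13 held 37.7% to 43.7% GC and 1 or 2 CpG dinucleotides. Those of Timp2 and Timp3, the inhibitors that rose in Gne KO proliferative cells, held 68.7% and 67% GC and 25 and 24 CpG dinucleotides, against medians of 52.7% and 7 over all windows. Their stretches of 100 bases are shown for contrast, from chr11:118355412-118355511 on the minus strand for Timp2 and from chr10:86300312-86300411 on the plus strand for Timp3, with no AP-1 motif and no TATAAA.
Timp2: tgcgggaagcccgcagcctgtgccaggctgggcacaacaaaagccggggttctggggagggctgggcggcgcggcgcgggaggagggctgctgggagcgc
Timp3: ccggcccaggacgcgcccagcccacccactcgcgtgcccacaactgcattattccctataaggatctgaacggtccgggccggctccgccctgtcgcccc
A motif match is a description of letters and not a binding site. In Gne KO differentiated cells Mmp3 and Mmp10 were higher and Mmp13 lower, and the part of the motifs in these changes was not tested.

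**Figure D2:**
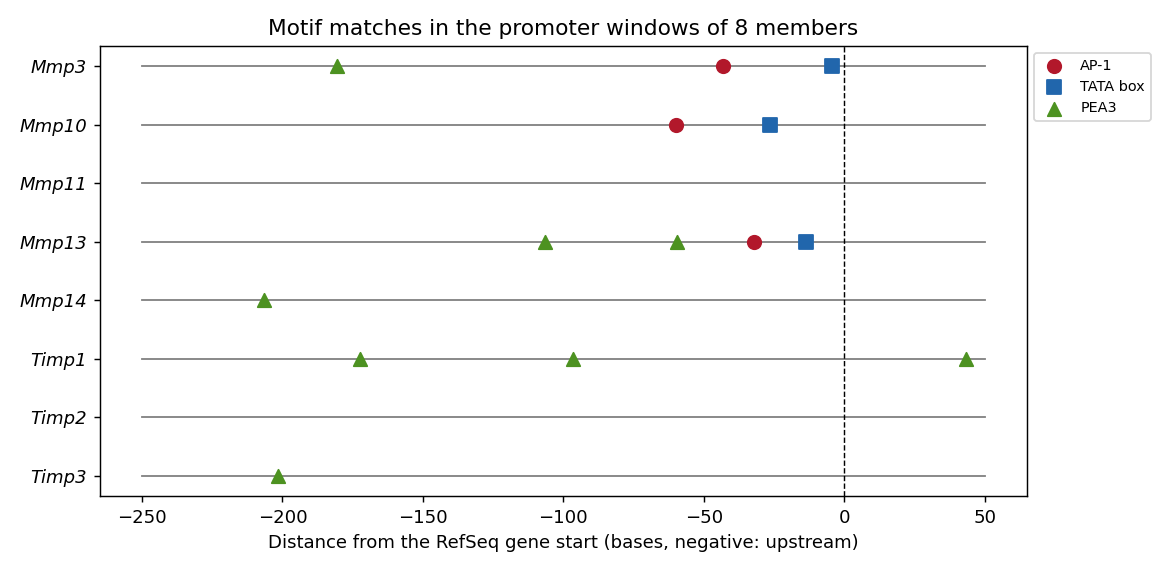
Matches of 3 motifs (AP-1, TATA box and PEA3) in the promoter windows of 8 members, by distance from the RefSeq gene start in bases on the x axis. AP-1 and TATA box matches lie within 63 bases upstream of the start of Mmp3, Mmp10 and Mmp13, and none is seen in the other 5 windows.

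Mmp11, stromelysin-3, is activated inside the cell by furin and secreted in active form. Its gene (ENSMUSG00000000901) lies on the minus strand of chromosome 10, from 75923222 to 75936496. Mmp11 had 1564, 1512 and 1618 normalized counts in Gne KO differentiated cells, against 1593, 1535 and 1573 in WT differentiated cells. Proliferative cells had 2019, 2048 and 2461 in Gne KO libraries, against 1408, 1240 and 1256 in WT libraries. The differentiated groups overlapped, while all Gne KO proliferative libraries stood above the WT ones. The Gne KO to WT log2 fold change was 0.00 in differentiated cells (SE 0.09, adjusted p = 0.993 from limma), and Mmp11 rose by 0.74 in proliferative cells (SE 0.09, adjusted p = 4.4e-06), or by 0.21 (adjusted p = 0.036) with the GC and length trend removed. The interaction was −0.74 (SE 0.12, adjusted p = 0.000248), and −0.24 (adjusted p = 0.0985) after that removal. On differentiation Mmp11 fell by 0.47 in Gne KO cells (SE 0.09, adjusted p = 0.000226), a value of −0.04 (adjusted p = 0.719) with the trend removed and of −0.20 (adjusted p = 0.0602) with scaling by library size. It rose by 0.27 in WT cells (SE 0.09, adjusted p = 0.03), a pass lost without any 1 WT differentiated library, Gne KO differentiated replicate 2, or WT proliferative replicate 2 or 3 (adjusted p up to 0.154), and with the trend removed (0.21, adjusted p = 0.0509). This rise in WT cells passed in 14 of 22 alternatives. Chchd10, which overlaps the gene on the other strand, had 303 counts in all libraries together.

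The 2 gelatinases did not change alike between the genotypes. Mmp2, gelatinase A, cuts denatured collagen and type IV collagen of basement membranes, and its gene (ENSMUSG00000031740) lies on chromosome 8, from 92827291 to 92853420. Mmp2 had 358.2, 311.3 and 383.5 normalized counts in Gne KO differentiated cells, against 3670, 3668 and 3553 in WT differentiated cells. In proliferative cells it had 121.5, 188.5 and 155.0 in Gne KO libraries, against 2102, 2130 and 2255 in WT libraries. Every Gne KO library lay below every WT library, and all 4 groups were apart from each other. Mmp2 was lower in Gne KO cells 10.3-fold in the differentiated state (log2 fold change −3.37, SE 0.11, adjusted p = 2.81e-11 from limma) and 14.2-fold in the proliferative state (−3.83, SE 0.13, adjusted p = 5.81e-11). Among the alternative settings these values ran from −3.43 to −3.30 and from −4.29 to −3.66. On differentiation Mmp2 rose 2.31-fold in Gne KO cells (1.21, SE 0.14, adjusted p = 2.4e-06), and without Gne KO proliferative replicate 1 the value was 1.04 (adjusted p = 7.7e-06), under the effect filter. In WT cells it rose 1.68-fold (0.75, SE 0.09, adjusted p = 1.23e-05). The interaction was 0.46 (SE 0.17, adjusted p = 0.0372), and it did not pass without replicate 1 or 3 of either Gne KO group or replicate 2 or 3 of either WT group (adjusted p up to 0.107, with 0.29 without Gne KO proliferative replicate 1), nor with library quality weights (0.35, adjusted p = 0.136). With the GC and length trend removed it was 0.90 (adjusted p = 0.000298), and the values were −4.29 between genotypes in proliferative cells (adjusted p = 1.51e-11) and 1.60 on differentiation of Gne KO cells (adjusted p = 5.7e-08).

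Mmp9, gelatinase B, has similar substrates, is made by neutrophils and macrophages among others, and its gene (ENSMUSG00000017737) lies on chromosome 2, from 164940780 to 164955850. It had 16350, 17090 and 15280 normalized counts in Gne KO differentiated cells, against 14830, 15120 and 16240 in WT differentiated cells. Proliferative cells had 27150, 39720 and 38530 in Gne KO libraries, against 15700, 15850 and 15380 in WT libraries. The Gne KO proliferative group stood above all others, which overlapped, and its replicate 1 was lower than the other 2. The Gne KO to WT log2 fold change of Mmp9 was 0.08 in differentiated cells (SE 0.11, adjusted p = 0.686 from limma), and in Gne KO proliferative cells it rose 2.21-fold (1.15, SE 0.11, adjusted p = 6.41e-07). The interaction was −1.07 (SE 0.16, adjusted p = 9.12e-05). On differentiation it fell in Gne KO cells by 1.09 (SE 0.11, adjusted p = 5.68e-07), and the value in WT cells was −0.02 (SE 0.11, adjusted p = 0.904). With the GC and length trend removed these were 0.69 in proliferative cells, −0.63 for the interaction and −0.71 on differentiation of Gne KO cells, all past the test (adjusted p = 6.71e-06, 0.000568 and 2.28e-06) and none past the effect filter. The macrophage and neutrophil list summed to no more than 117 in any library, as given above. Scaling by library size instead of TMM gave −0.83 on differentiation of Gne KO cells and −0.85 for the interaction, both under the effect filter (adjusted p = 2.15e-06 and 0.000179).

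Mmp14, the membrane-type 1 metalloproteinase, acts at the cell surface and activates Mmp2. Its gene (ENSMUSG00000000957) lies on chromosome 14, from 54431612 to 54445364. It had 14230, 13600 and 13850 normalized counts in Gne KO differentiated cells, against 11690, 11970 and 11390 in WT differentiated cells. Proliferative cells had 12720, 15450 and 15460 in Gne KO libraries, against 10160, 9776 and 9319 in WT libraries. Every Gne KO library exceeded every WT library. Mmp14 rose by 0.25 in Gne KO differentiated cells (SE 0.08, adjusted p = 0.031 from limma), a pass lost whichever of the 6 differentiated libraries was left out (adjusted p between 0.0662 and 0.111). There Mmp14 passed in 15 of 22 alternatives, with adjusted p from 8.44e-06 to 0.111. In Gne KO proliferative cells it rose by 0.57 (SE 0.08, adjusted p = 1.95e-05), or by 0.14 (adjusted p = 0.0459) with the GC and length trend removed. The interaction was −0.32 (SE 0.11, adjusted p = 0.0312), and 0.10 (adjusted p = 0.32) with the trend removed. It did not pass without Gne KO differentiated replicate 2 or 3, Gne KO proliferative replicate 2 or 3, WT differentiated replicate 1 or 2, or WT proliferative replicate 2 or 3 (adjusted p up to 0.111). On differentiation the value was −0.06 in Gne KO cells (SE 0.08, adjusted p = 0.55), but 0.32 (adjusted p = 0.000135) with the trend removed, 0.21 (adjusted p = 0.0159) with scaling by library size and −0.15 (adjusted p = 0.0156) when Gne KO proliferative replicate 1 was left out. WT cells showed a rise of 0.26 (SE 0.08, adjusted p = 0.0196), a pass lost without Gne KO differentiated replicate 2, WT differentiated replicate 1 or 2, or WT proliferative replicate 2 or 3 (adjusted p up to 0.104). This rise in WT cells passed in 17 of 22 alternatives.

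**Figure D3:**
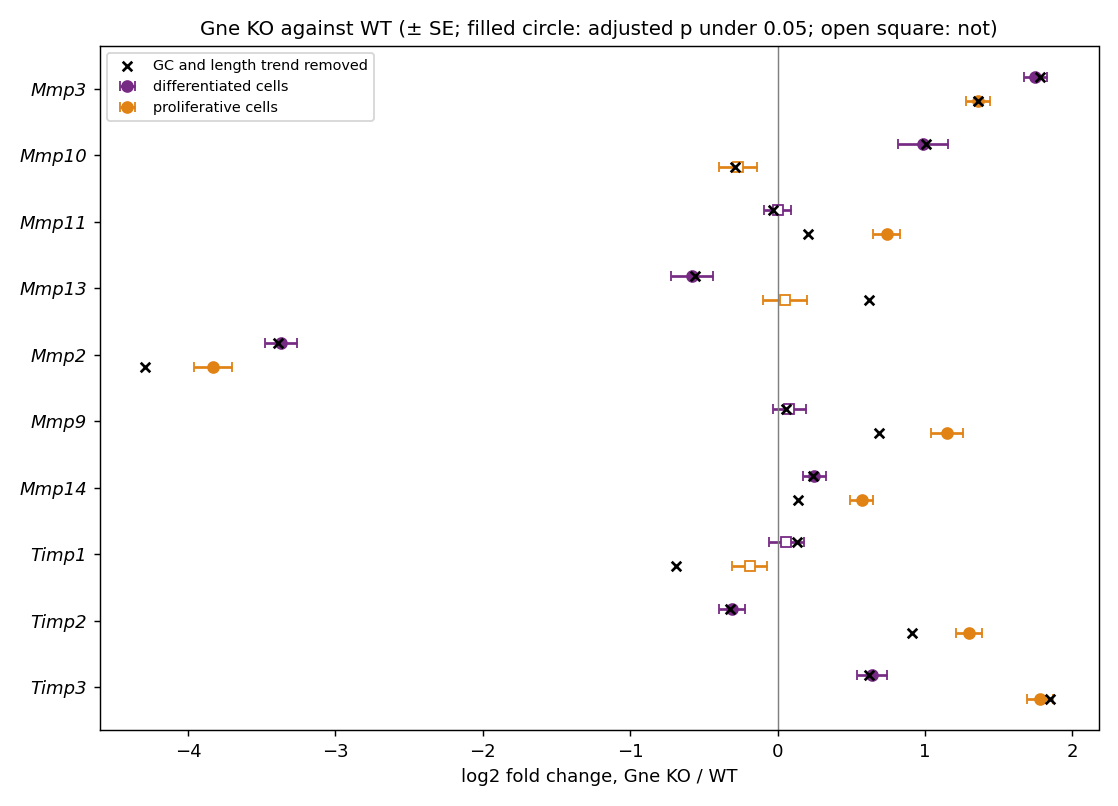
Log2 fold changes of Gne KO against WT (x axis, ± SE) for the 10 members in differentiated and proliferative cells, with crosses for the values after removal of the GC and length trend. Mmp2 lies at −3.37 and −3.83, and the crosses leave the circles in proliferative cells for Mmp11, Mmp13, Mmp2, Mmp9, Mmp14, Timp1 and Timp2.

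The 3 inhibitors did not move alike. Timp1 blocks most secreted metalloproteinases and is a weak inhibitor of Mmp14. Its gene (ENSMUSG00000001131) lies on chromosome X, from 20870166 to 20874735, within Syn1 on the other strand, which had 1250 counts in all libraries together. Timp1 had 1469, 1488 and 1519 normalized counts in Gne KO differentiated cells, against 1473, 1478 and 1358 in WT differentiated cells. Proliferative cells had 1665, 1718 and 2309 in Gne KO libraries, against 1854, 2362 and 2247 in WT libraries. The genotypes overlapped in both states, and every differentiated library lay below every proliferative one of its genotype. The Gne KO to WT log2 fold change was 0.06 in differentiated cells (SE 0.12, adjusted p = 0.787 from limma). It was −0.19 in proliferative cells (SE 0.12, adjusted p = 0.181), −0.34 without Gne KO proliferative replicate 3 (adjusted p = 0.00917) or without WT proliferative replicate 1 (adjusted p = 0.0249), −0.38 (adjusted p = 0.00708) with scaling by library size and −0.69 (adjusted p = 4.1e-05) with the GC and length trend removed. On differentiation Timp1 fell by 0.33 in Gne KO cells (SE 0.12, adjusted p = 0.0244), a pass lost without Gne KO differentiated replicate 1 or 2 (adjusted p = 0.0667 and 0.0538) or Gne KO proliferative replicate 3 (−0.18, adjusted p = 0.134), and the value was −0.07 (adjusted p = 0.626) with scaling by library size and 0.25 (adjusted p = 0.0402) with the trend removed. In WT cells it fell by 0.58 (SE 0.12, adjusted p = 0.00127). The interaction was 0.24 (SE 0.17, adjusted p = 0.254), 0.39 (adjusted p = 0.027) without Gne KO proliferative replicate 3, and 0.83 (adjusted p = 0.000396) with the trend removed.

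Timp2 inhibits metalloproteinases and bridges Mmp14 and the Mmp2 precursor. Its gene (ENSMUSG00000017466) lies on the minus strand of chromosome 11, from 118301069 to 118355740, and Cep295nl on the same strand within it had 1136 counts in all libraries together. Timp2 had 24420, 22500 and 24550 normalized counts in Gne KO differentiated cells, against 29390, 29860 and 29330 in WT differentiated cells. Proliferative cells had 49740, 63330 and 62680 in Gne KO libraries, against 24880, 23230 and 23010 in WT libraries. Gne KO libraries were below the WT ones in the differentiated state and above them in the proliferative state, with no overlap in either. Timp2 fell by 0.31 in Gne KO differentiated cells (SE 0.09, adjusted p = 0.0162 from limma), a pass lost without replicate 2 of Gne KO (−0.28, adjusted p = 0.0761) or of WT differentiated cells (−0.30, adjusted p = 0.0583). There Timp2 passed in 20 of 22 alternatives. In Gne KO proliferative cells it rose 2.46-fold (log2 fold change 1.30, SE 0.09, adjusted p = 2.01e-08), or by 0.91 (adjusted p = 5.41e-08) with the GC and length trend removed, which is under the effect filter. Of the 9 members whose interaction passed, Timp2 had the lowest value, −1.61 (SE 0.12, adjusted p = 4.46e-07), and −1.23 (adjusted p = 4.73e-07) with the trend removed. On differentiation Timp2 fell 2.44-fold in Gne KO cells (−1.29, SE 0.09, adjusted p = 6.42e-09), or by 0.94 (adjusted p = 9.23e-09) with the trend removed, and rose by 0.32 in WT cells (SE 0.09, adjusted p = 0.0105), a pass lost without WT differentiated replicate 1 (adjusted p = 0.0592).

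Timp3 is held in the extracellular matrix and inhibits Adam and Adamts metalloproteinases as well. Its gene (ENSMUSG00000020044) lies on chromosome 10, from 86300372 to 86349506, within Syn3 on the other strand, which had 56 counts in all libraries together. Timp3 had 1708, 1419 and 1736 normalized counts in Gne KO differentiated cells, against 1001, 973.8 and 1139 in WT differentiated cells. Proliferative cells had 4790, 4747 and 4625 in Gne KO libraries, against 1264, 1508 and 1382 in WT libraries. Gne KO libraries exceeded WT libraries in both states, and the Gne KO proliferative libraries stood above the rest. Timp3 rose 1.56-fold in Gne KO differentiated cells (log2 fold change 0.64, SE 0.10, adjusted p = 0.000153 from limma), while in Gne KO proliferative cells it rose 3.42-fold (1.78, SE 0.09, adjusted p = 2.4e-09). With the GC and length trend removed these values were 0.62 and 1.85. The interaction was −1.13 (SE 0.13, adjusted p = 1.43e-05), and it fell under the effect filter without Gne KO differentiated replicate 2 (−1.01) or WT proliferative replicate 1 (−1.04). The same held with scaling by library size (−0.91), with a stricter filter on counts (−1.02) and with library quality weights (−1.03). On differentiation Timp3 fell 2.92-fold in Gne KO cells (−1.55, SE 0.09, adjusted p = 2.03e-09) and 1.33-fold in WT cells (−0.41, SE 0.10, adjusted p = 0.0041).

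**Figure D4:**
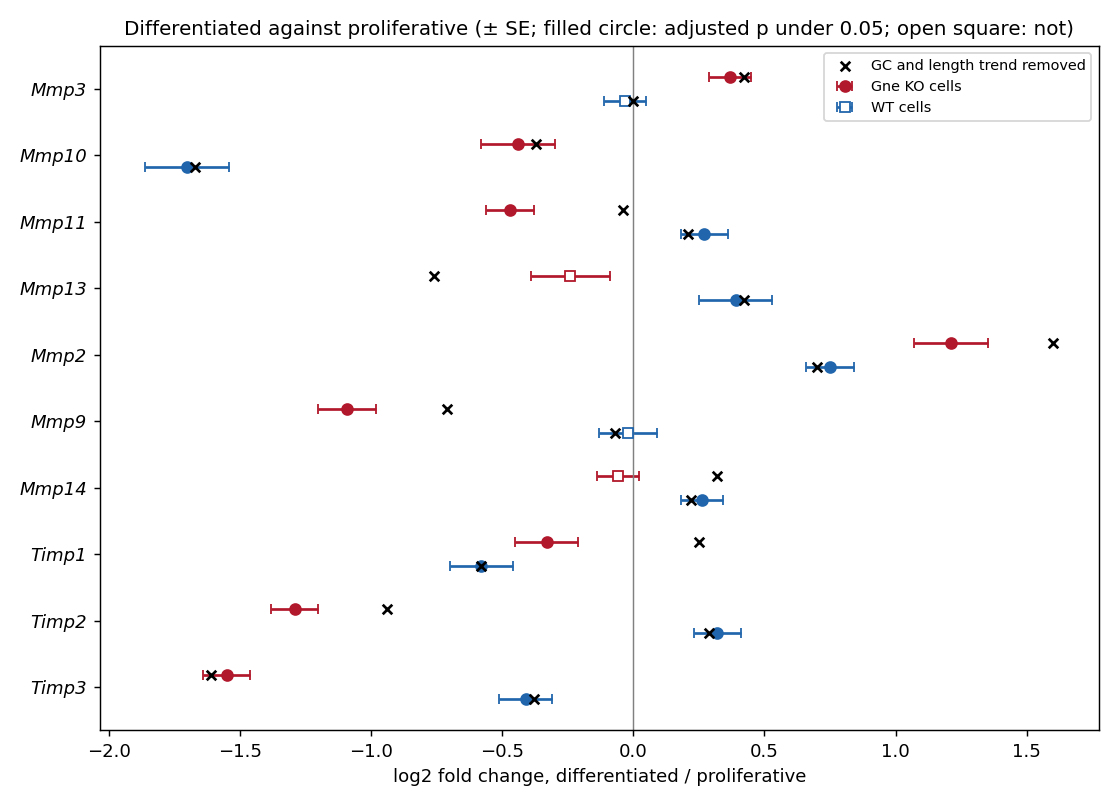
Log2 fold changes of differentiated against proliferative cells (x axis, ± SE) for the 10 members in Gne KO and WT cells, with crosses for the values after removal of the GC and length trend. Timp2, Timp3 and Mmp9 lie at −1.29, −1.55 and −1.09 in Gne KO cells and at 0.32, −0.41 and −0.02 in WT cells, and Mmp10 lies at −1.70 in WT cells.

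Groups that did not overlap were common in the whole table. Between Gne KO and WT, 7 members had groups apart in differentiated and 8 in proliferative cells, against 50.8% and 57.9% of all genes tested. Between the states 8 members had groups apart in Gne KO and 8 in WT cells, against 60.4% and 51.4%. The ratio of the highest to the lowest group mean was 23.4 for Mmp2, 4.55 for Timp3, 3.37 for Mmp3 and 3.20 for Mmp10, and 1.49 to 2.47 for the other 6. In the order of the 4 groups, from the highest, Mmp2 ran WT differentiated, WT proliferative, Gne KO differentiated and Gne KO proliferative, with no neighbours overlapping. Mmp9, Mmp11, Mmp14, Timp2 and Timp3 had their highest mean in Gne KO proliferative cells, although for Mmp14 that group overlapped the Gne KO differentiated one.

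To set different genes side by side, normalized counts were divided by the length of each gene's exons in kilobases. Mmp9, Mmp3 and Mmp14 made up most of the metalloproteinase sum in every group. Mmp3 held 40.1% ± 1.43 of the sum in Gne KO and 16% ± 0.109 in WT differentiated cells, and 23.3% ± 1.72 in Gne KO and 17.5% ± 0.472 in WT proliferative cultures (SD, n = 3 each). Mmp9 held 35.5% ± 1.88 in Gne KO and 45.3% ± 1.21 in WT differentiated cells, and 56.7% ± 3.00 in Gne KO and 49.3% ± 0.476 in WT proliferative cultures. The share of Mmp2 was 0.807% ± 0.0883 in Gne KO and 11.2% ± 0.442 in WT differentiated cells, and 0.263% ± 0.0294 in Gne KO and 7.16% ± 0.344 in WT proliferative cultures. Per kilobase of exons Mmp3 thus led the sum only in Gne KO differentiated cells, and Mmp9 led it in the other 3 groups. This order rests on the length used. Exons span 3539 bases in Mmp9 and 1801 in Mmp3, and the longest transcript 3175 and 1801. The longest transcript as length would therefore raise Mmp9 against Mmp3, and shares were not computed with it. Among the inhibitors Timp2 held 76.5% ± 0.682 in Gne KO and 81.3% ± 0.498 in WT differentiated cells, and 84.7% ± 1.68 in Gne KO and 70.1% ± 3.41 in WT proliferative cultures.

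The summed metalloproteinase level per kilobase was 12920 ± 280.2 in Gne KO and 9604 ± 207.9 in WT differentiated cells, and 17430 ± 2675 in Gne KO and 8960 ± 94.1 in WT proliferative cultures (SD, n = 3 each). For the inhibitors it was 7994 ± 323.1 in Gne KO and 9324 ± 125.0 in WT differentiated cells, and 17750 ± 2199 in Gne KO and 8681 ± 110.6 in WT proliferative cultures. Both sums were higher in Gne KO proliferative cells than in WT ones, and in differentiated cells Gne KO had the higher metalloproteinase and the lower inhibitor sum. Of the inhibitors only Timp2 had the lower mean there, 6115 in Gne KO against 7579 in WT. Timp1 had 1681 against 1617 and Timp3 199 against 127.4. The ratio of the sums was 1.54 to 1.68 in the 3 Gne KO and 1.01 to 1.07 in the 3 WT differentiated libraries. In proliferative libraries it was 0.941 to 1.01 in Gne KO and 1.02 to 1.05 in WT. With the GC and length trend removed the mean ratios were 1.58 in Gne KO and 1.02 in WT differentiated cells, and 1.01 in Gne KO and 1.03 in WT proliferative cultures. Without Mmp9 and Timp2, each at or near the top of its sum, the ratio was 4.43 in Gne KO and 3.01 in WT differentiated cells, and 2.77 in Gne KO and 1.77 in WT proliferative cultures. These sums are of RNA and give no measure of protease activity, and no test was run on them.

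**Figure D5:**
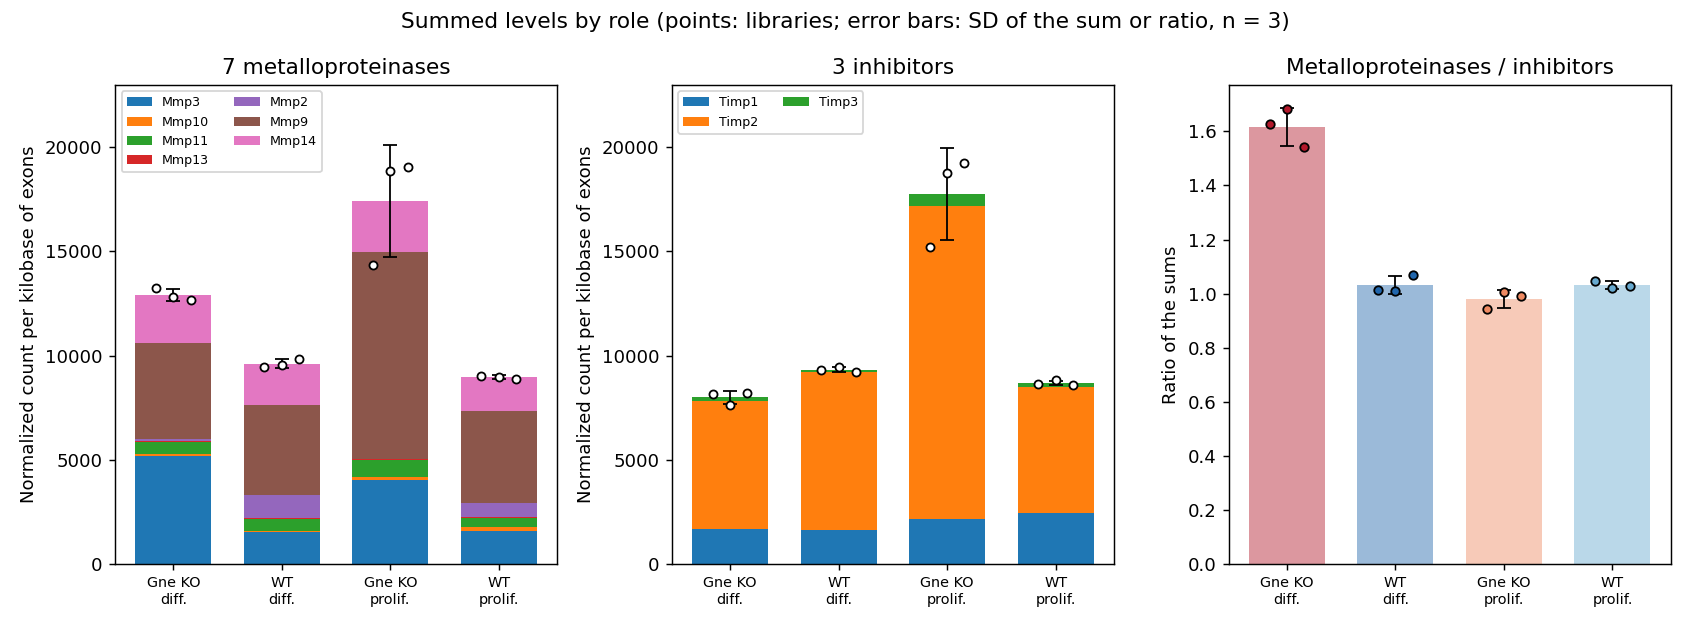
Normalized counts per kilobase of exons summed over the 7 metalloproteinases and over the 3 inhibitors, stacked by gene, and the ratio of the sums, with points for libraries and error bars for the SD (n = 3). The ratio is 1.54 to 1.68 in Gne KO differentiated libraries and 0.941 to 1.07 in the other 9.

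The lists that follow were read beside the same shares of all genes as the members, which were 23.6% passing between genotypes in differentiated and 55.4% in proliferative cells, and 56.4% and 31.8% between the states in Gne KO and WT cells. Of 16 other metalloproteinases 12 were tested, since Mmp7, Mmp20, Mmp21 and Mmp25 had 0 to 2 counts in all libraries together. None was called in any of the 5 comparisons, in which 2.7% to 11.7% of all genes were. In differentiated cells 4 were higher in Gne KO (Mmp16, Mmp19, Mmp23 and Mmp28, log2 fold changes 0.32 to 0.87) and 3 lower (Mmp12, Mmp15 and Mmp27, −1.01 to −0.81). In proliferative cells 5 were higher (the same 4 and Mmp24) and 3 lower (Mmp8, Mmp15 and Mmp27). Mmp8 and Mmp24 averaged only 9.16 and 12.3 normalized counts over all libraries, where the effect filter asks for a larger change. Mmp19 had 1534 ± 32.0 normalized counts in Gne KO, against 1024 ± 30.1 in WT differentiated cells, and 1245 ± 163.4 in Gne KO and 700.6 ± 131.8 in WT proliferative cultures. Mmp15, a membrane-type enzyme, had 857.0 ± 54.3 in Gne KO and 1509 ± 172.3 in WT differentiated cells, and 555.1 ± 106.9 in Gne KO and 913.2 ± 264.1 in WT proliferative cultures. Mmp23 rose by 0.99 in Gne KO proliferative cells (SE 0.10, adjusted p = 5.42e-07 from limma), with an interaction of −0.67 (SE 0.13, adjusted p = 0.000963). Mmp1a, Mmp1b and Mmp17 passed in neither comparison of genotypes. The list's median log2 fold change was −0.23 in differentiated and 0.05 in proliferative cells, beside −0.01 and −0.02 over all genes.

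Of 21 genes that activate, inhibit or clear metalloproteinases, 15 were tested. In differentiated cells 7 were higher and 3 lower in Gne KO, with a median log2 fold change of 0.27 beside −0.01 over all genes, and in proliferative cells 7 were higher and 5 lower, with 0.21 beside −0.02. Itgb3, the integrin subunit beta 3, was called in differentiated cells, with 560.8, 570.7 and 752.2 normalized counts in Gne KO against 166.0, 159.7 and 158.5 in WT libraries (log2 fold change 1.94, SE 0.14, adjusted p = 1.46e-07 from limma). Serpine2, an inhibitor of plasminogen activators and thrombin, had 6153, 6572 and 6886 in Gne KO proliferative cells, against 1988, 2058 and 2082 in WT ones. It rose by 1.68 there (SE 0.08, adjusted p = 1.65e-09), with a value of −0.08 in differentiated cells (SE 0.08, adjusted p = 0.575). Spock1 and Spock2, matrix proteoglycans of the testican family, were called lower in Gne KO proliferative cells at low counts. Spock1 had no count in the Gne KO libraries there, against 42.5, 23.3 and 20.5 normalized counts in WT libraries, and Spock2 averaged 5.07 in Gne KO, against 36.6 in WT cells. On differentiation Plaur, the urokinase receptor, fell in both genotypes, with log2 fold changes of −2.86 in Gne KO (SE 0.16) and −2.53 in WT cells (SE 0.14). Pcsk6, a proprotein convertase, fell by 1.75 in Gne KO cells (SE 0.18, adjusted p = 6.05e-07).

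Among 9 tested Adam genes of 10, 3 were higher and 2 lower in Gne KO differentiated cells, and in Gne KO proliferative cells 3 higher and 3 lower. Adam8, a membrane-anchored metalloproteinase, was called in both, with 1367 ± 52.7 normalized counts in Gne KO, against 532.6 ± 67.9 in WT differentiated cells, and 1902 ± 207.5 in Gne KO and 407.5 ± 32.8 in WT proliferative cultures. Its log2 fold changes were 1.37 (SE 0.11, adjusted p = 2.09e-07 from limma) in differentiated and 2.22 (SE 0.11, adjusted p = 1.65e-09). On differentiation of Gne KO cells Adam23 fell by 1.78 (SE 0.09) and Adam12, a gene of myoblast fusion, fell by 1.63 (SE 0.15), while Adam17, which sheds membrane proteins and is inhibited by Timp3, rose by 1.23 (SE 0.11). Of 17 Adamts genes, which cut proteoglycans and process collagens, 16 were tested. On differentiation 10 rose and 3 fell in Gne KO cells, with a median log2 fold change of 1.11 beside 0.07 over all genes, and 11 rose and 1 fell in WT cells, with 0.83 beside 0.02. Adamts15 had 1220, 1017 and 1255 normalized counts in Gne KO differentiated cells, against 23.7, 50.9 and 29.1 in Gne KO proliferative cells (log2 fold change 5.15, SE 0.33, adjusted p = 4.24e-09). In WT cells it had 633.2, 625.5 and 453.4 in the differentiated, against 68.5, 23.3 and 28.5 in the proliferative state (3.90, SE 0.32, adjusted p = 3.33e-07). Adamts16 rose by 4.20 and 2.42, Adamts4 by 1.99 and 1.91 and Adamts6 by 3.03 and 0.65 in Gne KO and WT cells.

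Of 16 tested genes for AP-1, ETS and RUNX factors, which are known to act on metalloproteinase promoters, 3 were higher and 6 lower in Gne KO differentiated cells, and in Gne KO proliferative cells 4 higher and 5 lower, a share near the 55.4% of all genes. Fos, an AP-1 subunit, had 299.1, 61.6 and 56.7 normalized counts in Gne KO and 1166, 1164 and 683.1 in WT differentiated cells, and 8.89, 18.5 and 29.1 in Gne KO and 117.0, 205.4 and 167.7 in WT proliferative cells. It was lower in every Gne KO library than in any WT library of its state, the log2 fold change being −3.21 (SE 0.42, adjusted p = 3.91e-05 from limma) in differentiated and −3.19 (SE 0.79, adjusted p = 0.00272) in proliferative cells. Atf3 and Junb, with −2.68 and −1.27, were called lower in Gne KO differentiated cells as well. Fosl1 rose in Gne KO proliferative cells, with 2261, 4349 and 3153 normalized counts in Gne KO against 780.0, 1535 and 1573 in WT libraries (1.36, SE 0.23, adjusted p = 0.000114). In differentiated cells, where Fos, Atf3 and Junb were lower in Gne KO, Mmp3 and Mmp10 were higher and Mmp13 lower. A link between these factors and the members was not tested. Etv4, a PEA3 factor, had an interaction of 1.37 (SE 0.18, adjusted p = 2.5e-05).

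Of 13 tested cytokine and growth factor genes of 15, 3 were higher and 4 lower in Gne KO differentiated cells and in Gne KO proliferative cells 2 higher and 6 lower. Fgf2, a fibroblast growth factor, rose by 1.50 in Gne KO differentiated cells (SE 0.13, adjusted p = 6.19e-07 from limma) and fell by 1.87 in Gne KO proliferative cells (SE 0.20, adjusted p = 1.55e-06). Pdgfb fell by 1.55 in Gne KO differentiated cells and Tgfb2 fell by 1.10 in Gne KO proliferative cells. Il1a and Il1b, inducers of Mmp3 in other cells, had 1 and 5 counts in all libraries together. Of 14 tested genes of matrix substrates, 7 were higher and 1 lower in Gne KO differentiated cells, with a median of 0.28, and in Gne KO proliferative cells 3 higher and 4 lower, with −0.03. Spp1, the phosphoprotein osteopontin and a substrate of Mmp3 and Mmp9, rose by 1.70 in Gne KO differentiated cells (SE 0.09, adjusted p = 5.37e-09) and had an interaction of 2.58 (SE 0.13, adjusted p = 2.23e-08). Col1a1, the alpha 1 chain of type I collagen, fell by 1.86 in Gne KO proliferative cells (SE 0.12, adjusted p = 1.51e-08), with 29730 ± 3681 normalized counts in Gne KO, against 109000 ± 21770 in WT cells. Of 8 cysteine cathepsin and hyaluronidase genes, 4 were higher and 1 lower in Gne KO differentiated cells (median 0.48), and 4 higher and 2 lower in proliferative cells (median 0.28). Ctsl, a lysosomal cathepsin that can also cut matrix, had 12880 ± 448.9 normalized counts in Gne KO differentiated cells, against 9767 ± 863.2 in WT differentiated cells, but 7648 ± 430.8 in Gne KO proliferative cells, against 11790 ± 1528 in WT proliferative cells, with an interaction of 1.02 (SE 0.13, adjusted p = 2.99e-05).

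The genes most like each member were found by Pearson's r of log2 CPM over the 12 libraries, among 11505 genes with a mean of at least 50 normalized counts. The libraries fall into 4 groups and each r rests largely on the group means, so it is given as a description. Mmp2 was most like Cavin2 (r = 0.990), Igfbp2 (r = 0.990) and Rnf207 (r = 0.988). Mmp3 was most like Dnm1 (r = 0.982), Tmem45a (r = 0.980) and Gpi1 (r = 0.978). Mmp9 followed Rnf40 (r = 0.997), Eef1g (r = 0.997) and Prrc2a (r = 0.994), and Timp2 followed Ercc3, Prnp and Mbtps1 (r = 0.993 to 0.994). For Mmp13 the highest r was 0.890, with Cdh2. No member was among the 3 genes most like another.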

How the data were processed

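The members, gene lists and tests were chosen with earlier results of these data known. A stranded mRNA kit was used and libraries were read from 1 end, and the authors assigned reads to genes of GRCm38. The tools in the submitters' processing notes are HTSeq 0.6.1, TopHat2 2.1.1, DESeq2 1.22.1 and cutadapt 1.18. Whether counting used strand is not known here, so genes that overlap others are uncertain. The deposited table holds raw counts per gene and library, with a question mark in place of all counts for 6252 of 54838 genes, and these columns were therefore classed as a mixed unit. It also holds 12 columns of normalized values and the authors' own fold changes and p-values, none of which was used.

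Raw counts of the 12 libraries were matched to the 4 groups by their labels. The 20415 genes that reached 10 counts in all libraries together were scaled by TMM (base R, trimming 30% on the log ratio and 5% on the level) and fitted across all 4 groups with voom in limma 3.58.1 (R 4.3.3). The count model of the study was replaced by voom because of the question marks. All tests had 2 sides, with Benjamini-Hochberg adjustment over all genes tested. A log2 fold change is thus on voom's scale of log2 CPM. For genes with a mean of at least 100 normalized counts its median standard error was 0.107 to 0.108 in the simple comparisons. The spread is pooled over the groups, although Gne KO proliferative libraries varied most. All 10 members were named. Of every list, the up to 3 called genes with the largest absolute log2 fold change in a comparison were eligible, with all other metalloproteinases and overlapping genes, and further members of lists were named after their values were seen. Gene positions, exon lengths and GC content came from GENCODE M21 (GRCm38), and promoter sequences from RefSeq (GRCm38.p6). Alternatives were other scalings, filters and weights, a replicate block, removal of a GC and length trend, fits of 6 libraries and leaving out each library. The scripts were tested on simulated data.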

Additional observations from a re-analysis of the deposited data

Results flagged for a closer look

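For 9 of the 10 members the difference between the genotypes passed as unequal in the 2 states, by limma's test of the interaction over all 20415 genes, of which 41.9% passed. The values are log2 fold changes of Gne KO against WT in differentiated minus those in proliferative cells. They were −1.61 for Timp2, −1.13 for Timp3, −1.07 for Mmp9, −0.74 for Mmp11, −0.62 for Mmp13 and −0.32 for Mmp14, and 0.40 for Mmp3, 0.46 for Mmp2 and 1.26 for Mmp10. Leaving out 1 library gave 6 to 9 members past the test, and 7422 to 9977 of all genes, against 8545 with all libraries. The value passed in all 21 alternatives for Timp2, Timp3, Mmp9, Mmp3 and Mmp10, in 19 for Mmp11, 16 for Mmp13, 11 for Mmp2 and 7 for Mmp14, which turned to 0.10 with the GC and length trend removed. For Timp2 the effect had opposite signs in the 2 states (−0.31 in differentiated and 1.30 in proliferative cells), and both passed. For Mmp3 and Mmp2 the sign was the same in both states. The spread between Gne KO proliferative libraries and the trend with GC content moved with this difference, and their part in it was not tested beyond the alternatives given with each gene.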

How the results depend on the processing

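Of 1090 values of members under the alternatives, 986 kept their direction and their side of the threshold. Removal of the GC and length trend kept 40 of 50, scaling by library size 41 of 50, and leaving out 1 library 543 of 600, with 52 weaker, 5 stronger and none reversed. With the trend removed, Mmp14 on differentiation of Gne KO cells (0.32), its interaction (0.10) and Timp1 on differentiation of Gne KO cells (0.25) reversed, and with the replicate block added they had the same values. Library size scaling turned Mmp14 on differentiation of Gne KO cells to 0.21. That scaling shifted the median of all genes by −0.19 in the comparison of genotypes in proliferative cells, by 0.26 on differentiation of Gne KO cells and by 0.22 for the interaction, and the share of higher genes among all called became 13.5%, 78.3% and 80.3%, against 25.7%, 58.5% and 64.9%. Called members in proliferative cells numbered 3 with the trend removed, with or without the replicate block, against 5. All genes called there then numbered 1155, or 1121 with the block, and those of the interaction 1087, or 1070 with the block, against 1889 and 1742. Library quality weights raised the genes that passed to 9234 between genotypes in differentiated cells and 10095 between the states in WT cells, against 4828 and 6496, and fitting only the 6 libraries compared gave 8462 for that comparison of genotypes. Leaving out 1 library gave 4 to 8 members past the test between the states in WT cells, where 8 passed with all, the 4 without WT differentiated replicate 1. All genes past that test then numbered 5167 to 8072.

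With the replicate block 2 members no longer passed, Mmp13 on differentiation of WT cells (0.39, adjusted p = 0.0539 from limma) and Mmp14 between genotypes in differentiated cells (0.25, adjusted p = 0.0516). Deviations of libraries with the same number correlated at −0.32 to 0.09 (median 0.005, 18 pairs), and those with different numbers at −0.28 to 0.34 (median 0.025, 36 pairs). No pairing by number was seen, but 3 libraries per group cannot settle whether the numbers pair the samples. The alternatives for the ratio of sums were chosen after the data were seen. With the longest transcript as length it was 1.84 in Gne KO and 1.22 in WT differentiated cells, and 1.09 in Gne KO and 1.21 in WT proliferative cultures. Without Mmp9 and Timp2 it was 4.43 in Gne KO and 3.01 in WT differentiated cells, and 2.77 in Gne KO and 1.77 in WT proliferative cultures. The causes of these shifts were not tested. Counts of Mmp13 and Mmp10 were lowest on average over all libraries, at 128.7 and 215.5.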
